A study of Mus musculus with 30 samples.

Results

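Mitochondrial beta-oxidation enzymes were followed in fetal mice through 10 genes: Acadvl, Acadl, Acadm, Acads, Hadha, Hadhb, Hadh, Eci1, Decr1 and Etfdh. They were taken by gene symbol from the annotation of the array, out of 18193 genes with a single symbol. The 10 genes are covered by 17 probe sets, and where a gene had several, the one with the highest average across the 30 arrays stands for it. All 10 passed the filter on dim probe sets in both tissues, on all 15 arrays of each tissue.

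The study gave perfluorooctane sulfonate (PFOS), a persistent fluorinated surfactant, as its potassium salt to pregnant CD-1 mice, an outbred stock. Dams were gavaged with 0, 5 or 10 mg/kg/day in 0.5% Tween 20 on gestation days 1 to 17, and on day 18 lung and liver were taken from the fetuses. Each array holds 1 litter, as RNA pooled from 3 fetuses, and there were 5 litters per dose and tissue, 30 arrays in all. The 6 groups are therefore liver and lung at 0 (Tween 20 alone), 5 and 10 mg/kg/day. Fetal age is the same in all groups, and the sex of the pooled fetuses is not in the labels. The comparisons ask whether these transcripts differ with dose in each tissue and whether the tissues differ in that change.

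Mitochondrial beta-oxidation shortens an activated fatty acid in repeated rounds of dehydrogenation, hydration, a second dehydrogenation and thiolytic cleavage. Acyl-CoA dehydrogenases of overlapping chain length preference carry out the first step, and the trifunctional protein, built from Hadha and Hadhb, carries out the remaining steps for long chains. In rodent liver many of these genes are known targets of the fatty acid sensing nuclear receptor Ppara, and the fetal liver near term also holds much blood-forming tissue.

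Among the 9 members with a RefSeq promoter window (GRCm38.p6, 250 bases before to 50 after the start), all but Decr1, 3 stretches before the start are shown because they belong to the ends of the liver response and to a start region that a pair of members shares. Hadha and Hadhb lie head to head on chromosome 5, with 272 bases between their first bases, and Eci1 and Hadh showed the largest and the smallest change in liver. Capitals mark each CG dinucleotide. The first stretch is chr5:30154981-30155252, plus strand, which is the sense of Hadhb and holds 18 CG. The second is chr17:24426433-24426682, plus strand, with 11 CG, and the third is chr3:131272102-131272351, minus strand, with 8 CG.
Hadha-Hadhb: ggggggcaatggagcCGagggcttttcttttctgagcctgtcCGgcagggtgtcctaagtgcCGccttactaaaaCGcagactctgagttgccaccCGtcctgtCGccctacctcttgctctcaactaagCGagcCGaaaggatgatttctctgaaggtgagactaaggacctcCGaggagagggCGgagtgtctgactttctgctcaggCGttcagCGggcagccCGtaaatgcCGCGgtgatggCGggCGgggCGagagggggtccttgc
Eci1: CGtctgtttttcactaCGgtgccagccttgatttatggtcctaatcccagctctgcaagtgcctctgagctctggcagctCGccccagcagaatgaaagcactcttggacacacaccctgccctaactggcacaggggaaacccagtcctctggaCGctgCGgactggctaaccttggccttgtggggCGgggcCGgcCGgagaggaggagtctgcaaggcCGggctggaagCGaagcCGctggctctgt
Hadh: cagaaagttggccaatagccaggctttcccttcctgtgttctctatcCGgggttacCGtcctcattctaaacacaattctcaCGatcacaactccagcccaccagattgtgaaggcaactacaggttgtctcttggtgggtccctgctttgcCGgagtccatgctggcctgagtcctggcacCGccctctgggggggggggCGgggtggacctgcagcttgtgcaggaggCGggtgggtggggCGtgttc

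The 300 base windows of the 9 members held 9 to 34 CG, with a median of 17, beside a median of 7 over 32851 windows of all genes, and their GC content ran from 50.7% to 70.3% beside a median of 52.7%. The windows were searched on both strands for a direct repeat of AGGTCA with 1 base between, with up to 2 mismatches among its 12 fixed letters. None of the 9 windows held it, and 3.86% of all windows did. A single exact AGGTCA, a search chosen after the values were seen, was in the windows of Acadvl and Acadm, which is 2 of 9, and in 16.3% of all windows. No match says only that these letters are not in this window.

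Values are log2 levels, and a change is a difference of log2 means from the litters at 0 mg/kg/day of the same tissue. Each probe set has its own response, so levels of different genes are not compared, and the sizes of different genes' changes are set side by side without a test. Levels averaged over each array ran from 5.08 to 5.10, and arrays of a group correlated with r from 0.990 to 0.995. The tissues carried their own markers: 11 hepatocyte markers averaged 12.74 to 12.90 in liver and 7.32 to 9.63 in lung, and 10 lung epithelial markers 10.94 to 11.30 in lung and 5.49 to 6.10 in liver. Some litters stood apart. In liver at 0 mg/kg/day Cym, the stomach protease chymosin, read 5.05, 11.27, 9.50, 5.28 and 8.20 in litters 1 to 5, against 4.23 to 5.60 in the exposed litters. In lung 12 cardiac muscle markers ranged from 6.21 to 10.20 on average per litter, the highest being litter 5 at 10 mg/kg/day. Whole tissue was measured, so fewer cells of a type and less RNA per cell cannot be told apart.

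In fetal liver 8 of the 10 members were higher at 5 mg/kg/day, and 9 were at the higher dose (limma, adjusted p under 0.05), and none was lower. Of all genes tested in liver, 4.26% were called higher at the lower dose and 5.3% at the higher. The median change of the members was 0.57 and 0.67, beside -0.01 and -0.02 over all 13269 genes. In 8 members every litter at 5 mg/kg/day lay above every control litter, as did 4.84% of all genes, and at 10 mg/kg/day this held for 9 members and 4.63% of all genes. Both doses are set against the same 5 control litters, so they do not repeat each other independently.

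**Figure D1:**
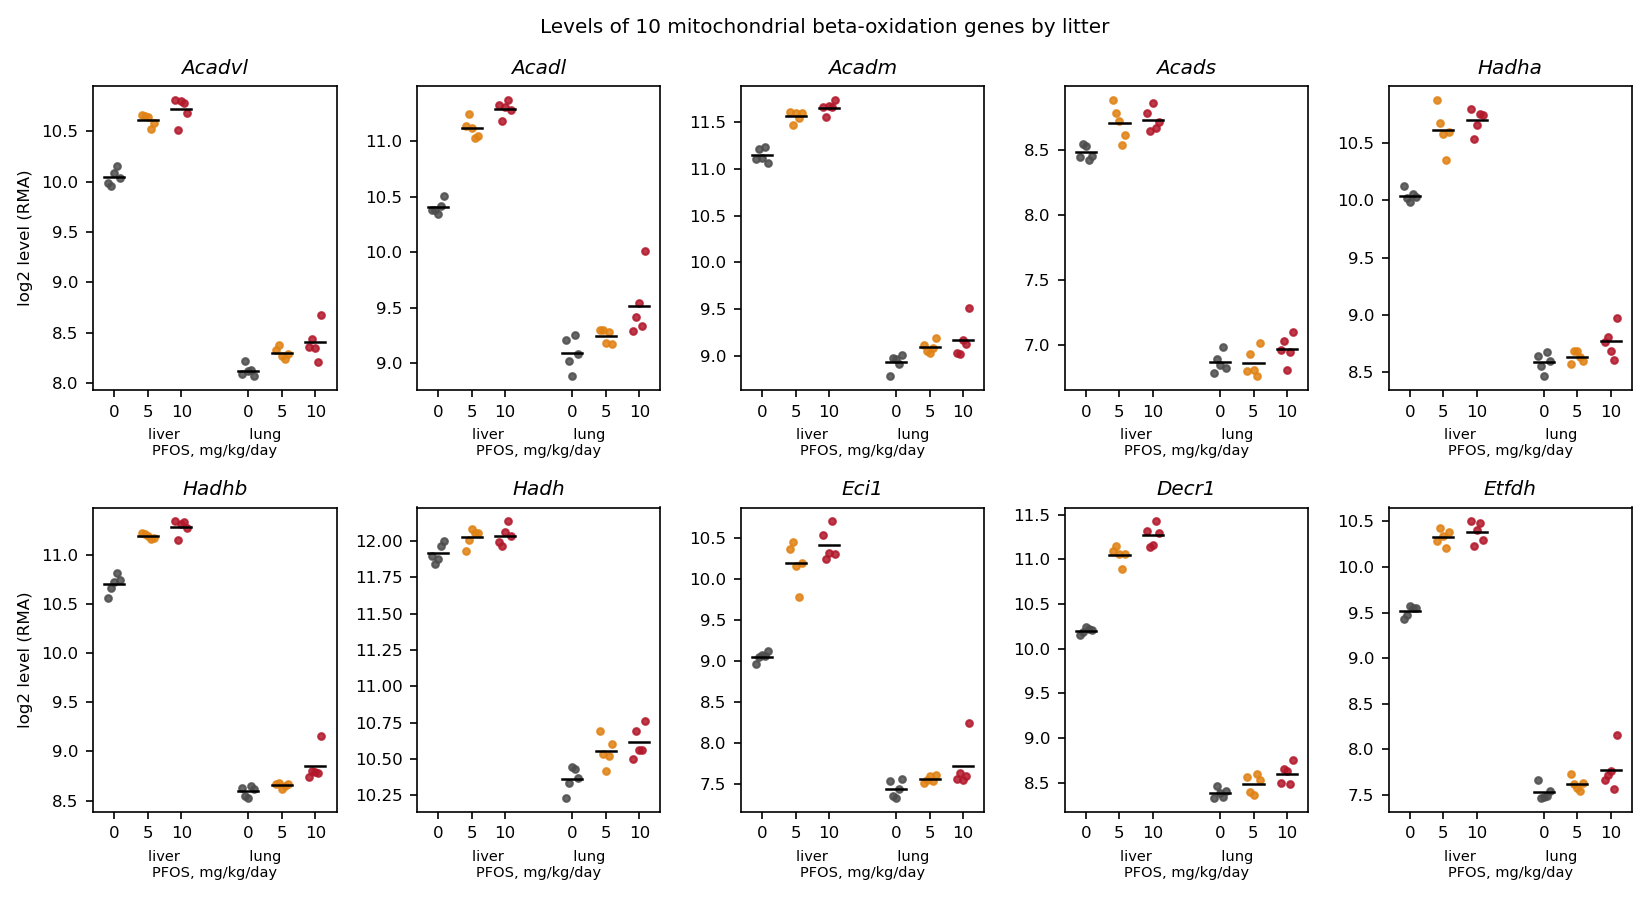
Log2 level (RMA) of each of the 10 genes in every litter, by tissue and dose of PFOS in mg/kg/day, where points are litters and lines are group means of 5 litters. In liver the exposed litters lie above the controls without overlap in 9 genes at 10 mg/kg/day, Hadh overlaps, and in lung litter 5 at 10 mg/kg/day is the highest of its group in all 10.

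At the first step of each round, the 4 acyl-CoA dehydrogenases among the members changed in liver by 0.23 to 0.71 at 5 mg/kg/day and by 0.25 to 0.89 at 10 mg/kg/day. Acadvl, the very long chain acyl-CoA dehydrogenase of the inner membrane, read 9.99, 9.96, 10.08, 10.16 and 10.04 in the control livers, 10.66, 10.65, 10.64, 10.52 and 10.58 at 5 mg/kg/day and 10.82, 10.51, 10.81, 10.79 and 10.68 at 10 mg/kg/day. The exposed litters did not overlap with the controls at either dose. Its change was 0.57 (limma adjusted p = 4.90e-05, SE 0.07) and 0.68 (adjusted p = 4.85e-06, SE 0.07), in linear terms 1.48 and 1.60 times the control level.

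Acadl, the long chain dehydrogenase, lay between 10.35 and 10.51 in the controls and read 11.14, 11.24, 11.12, 11.03 and 11.05 at 5 mg/kg/day. At 10 mg/kg/day its litters read 11.33, 11.18, 11.31, 11.38 and 11.28. All exposed litters were again above all controls, with changes of 0.71 (limma adjusted p = 1.48e-06, SE 0.06) and 0.89 (adjusted p = 1.03e-07, SE 0.06). With its probe sets averaged, 1 of which is never above the 40th percentile, the change was 0.39 and 0.40 (limma adjusted p = 0.00122 and 0.000661). That dim set showed 0.08 and -0.08 by itself, which lowers the average by arithmetic. The averaged values therefore do not rank Acadl against Acadvl.

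Acadm, the medium chain dehydrogenase, lay between 11.06 and 11.24 in the controls, between 11.47 and 11.61 at 5 mg/kg/day and between 11.55 and 11.74 at 10 mg/kg/day. It rose by 0.42 (limma adjusted p = 0.000186, SE 0.06) and 0.51 (adjusted p = 1.50e-05, SE 0.06), with no overlap.

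Acads, which takes the shortest chains, had the smallest estimated change of the 4. Its control litters read 8.45, 8.55, 8.53, 8.43 and 8.45, those at 5 mg/kg/day 8.88, 8.78, 8.72, 8.54 and 8.62, and those at 10 mg/kg/day 8.78, 8.65, 8.86, 8.67 and 8.71. Litter 4 at 5 mg/kg/day overlapped with the controls, while at 10 mg/kg/day none did. The change of 0.23 at 5 mg/kg/day did not pass the test (limma adjusted p = 0.0614, SE 0.07). At 10 mg/kg/day Acads rose by 0.25 (adjusted p = 0.0258, SE 0.07), a call that was lost when 1 of litters 1, 4 and 5 of the controls or 1 of litters 1 and 3 at 10 mg/kg/day was left out (adjusted p from 0.0536 to 0.0719). It was also lost without control litters 2, 3 and 5, with a change of 0.30 and an adjusted p of 0.128.

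The trifunctional protein's genes rose together, and Hadh, the hydroxyacyl-CoA dehydrogenase for shorter chains, did not pass the test. Hadha, the subunit with the hydratase and long chain hydroxyacyl-CoA dehydrogenase activities, read 10.12, 10.02, 9.98, 10.06 and 10.03 in the controls, 10.88, 10.68, 10.58, 10.36 and 10.60 at 5 mg/kg/day and 10.80, 10.54, 10.66, 10.75 and 10.74 at 10 mg/kg/day. No exposed litter overlapped with the controls, and the change was 0.58 (limma adjusted p = 0.000351, SE 0.08) and 0.66 (adjusted p = 5.34e-05, SE 0.08). Hadhb, the thiolase subunit read from the opposite side of the 272 bases printed above, lay between 10.56 and 10.81 in the controls, between 11.16 and 11.23 at 5 mg/kg/day and between 11.16 and 11.34 at 10 mg/kg/day. It rose by 0.49 (limma adjusted p = 5.02e-05, SE 0.06) and 0.58 (adjusted p = 5.36e-06, SE 0.06).

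Hadh read 11.90, 11.84, 11.88, 11.97 and 12.00 in the controls, 11.93, 12.01, 12.08, 12.05 and 12.05 at 5 mg/kg/day and 11.99, 11.96, 12.06, 12.14 and 12.04 at 10 mg/kg/day. The groups overlapped at both doses. The differences were 0.11 (95% interval -0.01 to 0.22, limma adjusted p = 0.278) and 0.12 (0.01 to 0.24, adjusted p = 0.181). Its second bright probe set, at 10.99 on average, showed 0.06 and 0.09, and a dim one at 4.61 showed 0.16 and 0.15.

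The largest estimates were in the auxiliary enzymes that handle double bonds already present in the fatty acid. Eci1, the enoyl-CoA isomerase whose upstream bases are printed above, read 8.96, 9.05, 9.07, 9.06 and 9.12 in the controls, 10.37, 10.45, 10.15, 9.79 and 10.19 at 5 mg/kg/day and 10.54, 10.24, 10.32, 10.70 and 10.31 at 10 mg/kg/day. The lowest exposed litter, litter 4 at 5 mg/kg/day, was still above the highest control. Eci1 rose by 1.14 (limma adjusted p = 9.88e-06, SE 0.11) and 1.37 (adjusted p = 7.35e-07, SE 0.11), that is to 2.20 and 2.58 times the control level.

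Decr1, the dienoyl-CoA reductase, read 10.15, 10.19, 10.24, 10.22 and 10.21 in the controls, 11.09, 11.15, 11.06, 10.89 and 11.05 at 5 mg/kg/day and 11.32, 11.14, 11.16, 11.42 and 11.29 at 10 mg/kg/day. It had the smallest spread of the members among the controls (SD 0.04), and no exposed litter reached down to them. The rise was 0.85 (limma adjusted p = 9.79e-07, SE 0.06) and 1.07 (adjusted p = 4.43e-08, SE 0.06), and its second probe set showed 0.75 and 1.00.

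Etfdh passes the electrons of the acyl-CoA dehydrogenases to ubiquinone in the respiratory chain. It read 9.43, 9.47, 9.57, 9.55 and 9.55 in the controls, 10.28, 10.43, 10.33, 10.21 and 10.38 at 5 mg/kg/day and 10.50, 10.23, 10.41, 10.49 and 10.29 at 10 mg/kg/day. The rise was 0.81 (limma adjusted p = 1.48e-06, SE 0.07) and 0.87 (adjusted p = 2.94e-07, SE 0.07), without overlap.

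**Figure D2:**
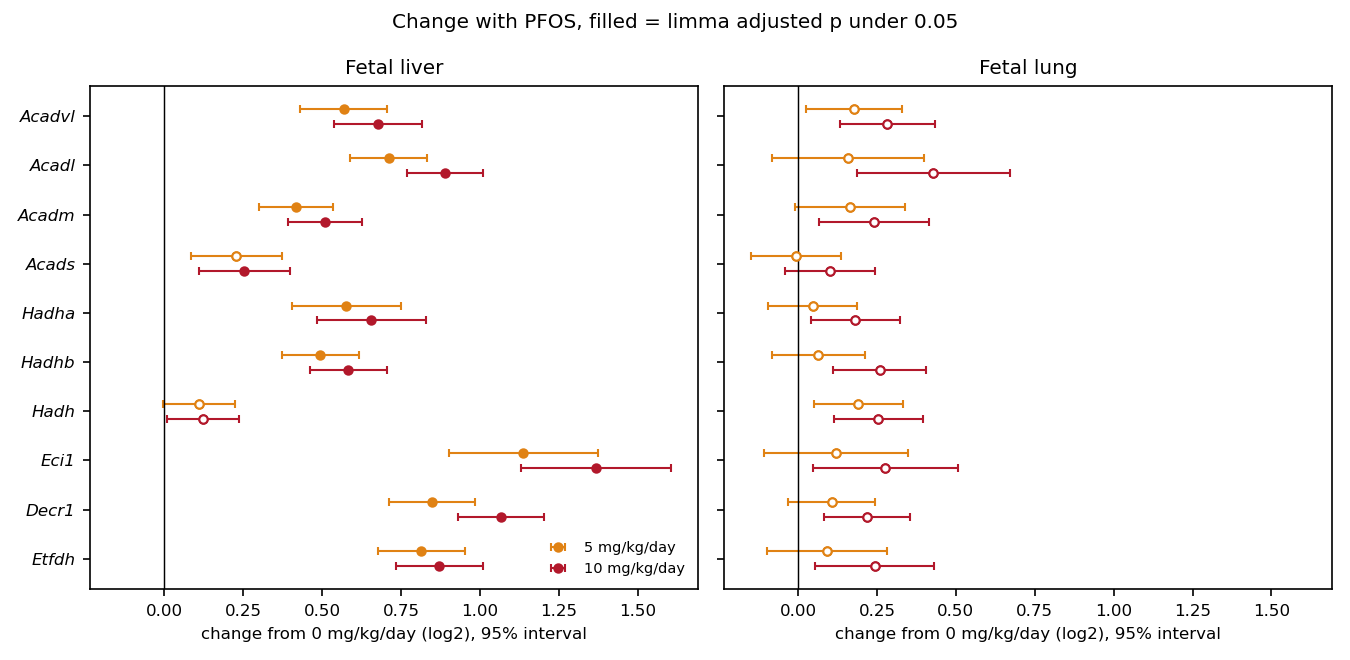
Change of each gene from 0 mg/kg/day (log2) with its 95% interval from limma, in fetal liver and fetal lung at 5 and 10 mg/kg/day, 5 litters per group. Filled points passed an adjusted p of 0.05: in liver all but Acads at 5 mg/kg/day and Hadh at both doses, and in lung none.

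Between the doses the liver members differed little. At 10 against 5 mg/kg/day the differences ran from 0.01 for Hadh to 0.23 for Eci1 and were positive in all 10, and 0 were called, as were 0.00754% of all genes. Acadl at 0.18 (95% interval 0.06 to 0.30) and Decr1 at 0.22 (0.08 to 0.35) had an unadjusted p under 0.05, with limma adjusted p of 0.493 and 0.481.

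Some litters were low or high across members. In liver litter 2 at 10 mg/kg/day was the lowest of its group in all 10 members, and litter 4 at 5 mg/kg/day in 8 of 10. Litter 2 was also the highest of its group in the mean of 8 erythroid markers, at 10.22 against 9.71 to 10.12 in the other litters. Without it 9 members were called at 10 mg/kg/day, with changes from 0.14 to 1.41, and without litter 4 at 5 mg/kg/day 9 were called there. The shares of all genes called in these fits are not given here.

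After the dose means were subtracted, 41 of the 45 pairs of members correlated positively over the 15 livers, and the median Pearson r was 0.41. Of 90 pairs tested over both tissues, 5 in liver passed a permutation test with an adjusted p under 0.05. Eci1 and Decr1 had r = 0.90 (rho = 0.84, permutation p = 9e-05, adjusted p = 0.0081). Their r was 0.81 without the 2 litters farthest from the median of the first gene of the pair, here Eci1. Acadvl and Hadhb had r = 0.85 (rho = 0.90, permutation p = 0.00049, adjusted p = 0.0126), and r = 0.79 without 2 litters.

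Cell type markers moved in the liver beside these genes. Of all 13269 genes tested in liver, 240 were called lower at the lower dose and 692 at the higher. Of 8 tested erythroid markers 3 fell at the lower dose (Hemgn, Klf1 and Ermap, by 0.41, 0.41 and 0.35) and 0 at the higher, with list means of 9.96 to 10.27 in the controls, 9.71 to 9.87 and 9.71 to 10.22. Of 9 granulocyte markers 0 and then 3 fell (Prtn3, Ltf and Elane, by 0.41, 0.38 and 0.37), with means of 11.25 to 11.45, 10.93 to 11.36 and 10.85 to 11.17. Of 11 hepatocyte markers 0 and then 2 fell (Ahsg and Apoa1, by 0.18 and 0.17), with means of 12.77 to 12.90, 12.81 to 12.84 and 12.74 to 12.85, and none of the 11 was called higher. Within doses the correlation of a member with the erythroid mean ran from -0.76 to 0.02, and none passed (smallest adjusted p 0.0833 over 40 relations). An unadjusted limma p under 0.05 was reached at the 2 doses by 6 and 3 erythroid, 2 and 9 granulocyte and 2 and 5 hepatocyte markers. Of all 13269 genes 2626 and 3178 reached it. All 9 granulocyte markers had negative differences at both doses. The part of these cell types in the change of the members was not tested. Without control litters 2, 3 and 5, those high in Cym, 8 members were called at each dose, with changes from 0.09 to 1.18 and from 0.11 to 1.41. The share of all genes called without those controls is not given here.

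In fetal lung no member passed the test at either dose. At 5 mg/kg/day the differences ran from -0.01 for Acads to 0.19 for Hadh, 0 members were called by limma beside 0.0155% of all genes, and 2 had an unadjusted p under 0.05, beside 4.62% of all genes. In 2 members, Acadvl and Acadm, all exposed litters lay above the controls, as in 0.551% of all genes. At 10 mg/kg/day all 10 differences were positive, from 0.10 for Acads to 0.43 for Acadl, with a median of 0.25 beside 0.01 over all 12897 genes. Again 0 were called by limma, beside 0.0543% of all genes, with adjusted p from 0.322 to 0.817. Of the 10 members 9 had an unadjusted p under 0.05, as did 6.91% of all genes, and 5 had all exposed litters above all controls, as did 0.636% of all genes. Between 10 and 5 mg/kg/day 0 members were called by limma, as were 0.0% of all genes. In that comparison 2 members had an unadjusted p under 0.05, as did 296 of 12897 genes.

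All 7 skeletal muscle markers tested in lung also had positive differences at both doses, with medians of 0.94 and 0.85. None was called by limma, and 5 and then 4 had an unadjusted p under 0.05. The mean of the 8 markers in the list lay between 4.04 and 5.36 in the controls, 3.84 and 6.41 at 5 mg/kg/day and 4.79 and 5.99 at 10 mg/kg/day, and their part in the differences of the members was not tested.

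Litter 5 at 10 mg/kg/day was the highest of its group in all 10 members. Acadl read 9.29, 9.41, 9.54, 9.34 and 10.01 there, against 8.88 to 9.26 in the controls. Hadhb read 8.74, 8.80, 8.79, 8.78 and 9.15 against 8.53 to 8.65, and Eci1 read 7.57, 7.64, 7.55, 7.60 and 8.25 against 7.34 to 7.56. The fifth value is far above the other 4 in each. Hadh, with 10.50, 10.69, 10.56, 10.56 and 10.76 against 10.23 to 10.45, had a smaller gap.

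That litter stood apart in heart muscle genes too. Its 12 cardiac markers averaged 10.20, against 7.41 to 8.23 in the other litters of the dose, and 8 of the 12 were at their highest of all 15 lungs there. Control litter 1 was next at 8.97, and the rest of the litters at 0 and 5 mg/kg/day averaged 6.21 to 8.47. Myl2, the ventricular myosin light chain, read 12.72 there, 3.47 to 3.83 in the other litters of the dose and 2.78 to 7.68 in the litters of the other doses. Whether heart muscle in that sample added to its member levels was not tested. The 6 brown fat markers averaged 4.45 there and 3.63 to 4.09 in the other litters of the dose, and 4 of them were at their highest of all 15 lungs: Cox8b at 7.43, Cox7a1 at 6.96, Cidea at 4.53 and Elovl3 at 3.10. Ucp1, Elovl3 and Adipoq were never above the 40th percentile of the array in any lung. Which tissue the signal of the other markers came from was not tested, so they are not read as brown fat.

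Without this litter the lung differences at 10 mg/kg/day were smaller, from 0.07 for Acads to 0.31 for Acadl with a median of 0.17. They stayed positive in all 10, 9 had an unadjusted p under 0.05, as did 6.58% of all genes, and none was called (limma adjusted p from 0.381 to 0.896). Eci1 went from 0.28 to 0.15, Etfdh from 0.24 to 0.15, and Hadh from 0.25 to 0.22. In 5 members, Acadl, Acadm, Hadhb, Hadh and Decr1, the remaining 4 litters were all above the controls, as in 0.985% of all genes. With the mean of the 11 cardiac markers that passed the filter as a covariate the differences ran from 0.09 to 0.33. None was called in that fit (limma adjusted p from 0.385 to 0.756), and 6 of the 10 had an unadjusted p under 0.05. Without litter 1 at 0 and 5 mg/kg/day the differences ran from 0.08 to 0.46, and 9 had an unadjusted p under 0.05. The shares of all genes in that fit and in the covariate fit are not given here. These litters had the highest hepatocyte means of the lungs, 9.30 and 9.63. Hpx read 9.80 and 9.68 in them and at most 6.54 in the other lungs, while Afp was the lowest of its group in both. Whether liver in these samples added to their member levels was not tested. After the dose means were subtracted, r of a member with the mean of the 11 cardiac markers ran from -0.09 to 0.66 across all 15 lungs. For the mean of the 2 brown fat markers that passed the filter r ran from 0.04 to 0.85, and for the hepatocyte mean from 0.11 to 0.59. No adjusted p of the permutation test was under 0.05 (smallest 0.0833).

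**Figure D3:**
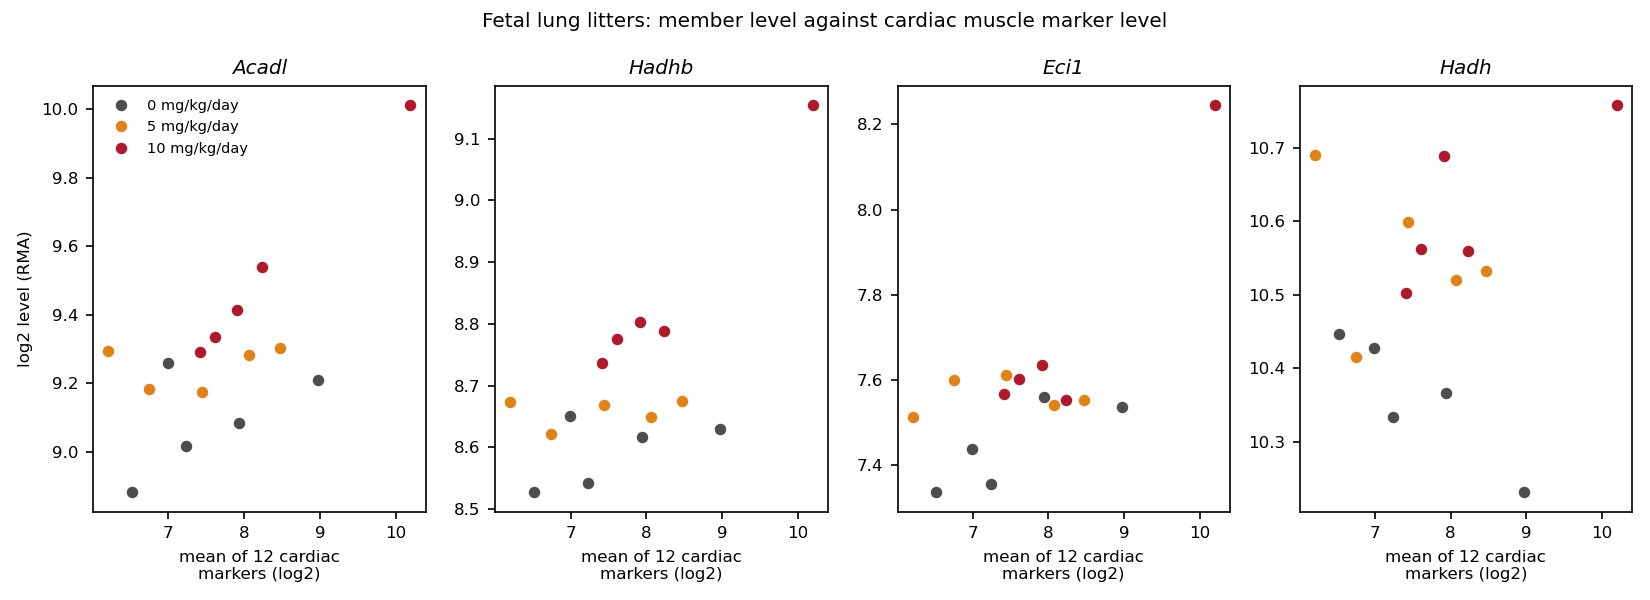
Log2 level (RMA) of Acadl, Hadhb, Eci1 and Hadh in each fetal lung litter against the mean log2 level of 12 cardiac muscle markers in that litter, coloured by dose. Litter 5 at 10 mg/kg/day lies alone at a cardiac mean of 10.20 and is the highest litter in each panel, and for Hadhb, Acadl and Hadh the other litters at 10 mg/kg/day also lie above all controls.

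In lung r was positive in all 45 pairs of members after the dose means were subtracted, with a median of 0.60. Without the 2 litters farthest from the median of the first gene of each pair, the median was 0.13 and the lowest r -0.45. Acadl and Hadhb were the pair that passed the permutation test on r (r = 0.94, rho = 0.89, permutation p = 0.00021, adjusted p = 0.00945), and r was 0.82 without 2 litters. Genes outside the members that followed their mean standardized level most closely over the 15 lungs were Ndufb3, Mb, Cs, Tatdn1, Sdhb and Tmod1, with r from 0.93 to 0.90, falling to 0.58 to 0.78 without 2 litters. In liver they were Cyp3a25, Cpne5, Apcs, Slco1b2, Apmap and Ephx1, with r from 0.93 to 0.88 and 0.72 to 0.90 without 2 litters.

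The change in liver exceeded that in lung by a test of the difference in 7 of 10 members. In a fit of all 30 arrays the difference of the changes was called higher for liver in 7 members at each dose, beside 1.57% of all genes at the lower and 2.22% at the higher. These were Acadvl, Acadl, Hadha, Hadhb, Eci1, Decr1 and Etfdh. At 10 mg/kg/day Eci1 differed most, by 1.09 (limma adjusted p = 5.25e-05, SE 0.16), then Decr1 by 0.85 (adjusted p = 3.33e-07, SE 0.09) and Etfdh by 0.63 (adjusted p = 0.000511, SE 0.11). Acadl, by 0.46 (adjusted p = 0.0399, SE 0.13), and Hadhb, by 0.32 (adjusted p = 0.0283, SE 0.09), were near the threshold. On leaving out single litters Acadl lost the call at 10 mg/kg/day in 15 of 20 fits (adjusted p from 0.0543 to 0.0848) and Hadhb in 10 of 20 (0.0516 to 0.0625). With dose and replicate number as a block over liver and lung, 6 members were called at 5 mg/kg/day, without Acadvl (adjusted p = 0.0815), and 5 at 10 mg/kg/day, without Acadl (0.0514) and Hadhb (0.0599). Acadm, Acads and Hadh were not called. For Hadh, by the probe set used, the liver change at 10 mg/kg/day was the smaller one, by -0.13 (95% interval -0.30 to 0.03). Its second bright probe set showed 0.09 in liver and 0.10 in lung at that dose. Without lung litter 5 at 10 mg/kg/day 8 members were called, the added one being Acadm with 0.35 and an adjusted p of 0.00564.

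All 10 members were higher in liver than in lung without PFOS, as were 42.6% of all genes. The difference ran from 1.32 for Acadl (limma adjusted p = 1.12e-13, SE 0.09) to 2.22 for Acadm (adjusted p = 7.33e-22, SE 0.07), with a median of 1.71 beside 0.04 over all 13856 genes.

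Other probe sets of the members were tested by themselves, without the filter, an alternative chosen after the data were seen. Hadhb's other probe sets showed 0.60 and 0.62, and 0.52 and 0.56, in liver at 5 and 10 mg/kg/day, close to 0.49 and 0.58 for the set used. The second set of Acadl, at 2.40 in liver and never above the 40th percentile, showed 0.08 and -0.08, and that of Etfdh, also never above it, 0.59 and 0.37. In lung the second set of Decr1 showed 0.00 at 10 mg/kg/day (95% interval -0.13 to 0.13), against 0.22 for the set used. The second bright set of Hadh showed 0.09 and 0.10 in lung at 5 and 10 mg/kg/day, against 0.19 and 0.25 for the set used. Its 95% intervals ran from -0.06 to 0.23 and from -0.04 to 0.24. Hadh's dim set, never above the 40th percentile in lung, showed 0.12 and 0.23.

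Around the members the rest of the pathway was described by gene lists, with counts and medians over the genes tested in liver at 5 and 10 mg/kg/day. Of 11 other genes listed under mitochondrial beta-oxidation 5 rose at each dose and none fell, with medians of 0.17 and 0.17. Where the proteins of these genes lie in the cell was not examined, so the list is not set apart from peroxisomes. Eci2, a second enoyl-CoA isomerase, rose by 0.87 and 1.01, Ech1, a dienoyl-CoA isomerase, by 0.73 and 0.80, and Acad11, a dehydrogenase of longer chains, by 0.68 and 0.75. Etfb and Etfa, the subunits of the flavoprotein that feeds Etfdh, rose by 0.31 and 0.35 and by 0.23 and 0.27. Named outside the rule after their values were seen, the short chain hydratase Echs1 showed 0.06 and 0.11 and the thiolase Acaa2 0.12 and 0.13, with limma adjusted p from 0.12 to 0.577.

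Of 6 carnitine shuttle genes, which move acyl groups across the mitochondrial membranes, 3 and 4 rose and none fell, with medians of 0.34 and 0.53. Cpt2, the inner membrane transferase, rose by 1.03 and 1.27, the carrier Slc25a20 by 0.96 and 1.01 and the plasma membrane carnitine transporter Slc22a5 by 0.54 and 0.82. Crat, the carnitine acetyltransferase, showed 0.14 and then rose by 0.23. Cpt1a, the outer membrane transferase that controls entry, named outside the rule, showed 0.04 and -0.03 (limma adjusted p = 0.886 and 0.885). All 3 tested genes of fatty acid activation rose at both doses: Acsl4 by 0.82 and 0.99, Acsl3 by 0.56 and 0.69, and Acsl5 by 0.59 and 0.63.

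The peroxisomal pathway, which starts on very long chains, had 8 of 13 genes higher at 5 mg/kg/day and 9 higher and 1 lower at 10 mg/kg/day, with medians of 0.55 and 0.72. Ehhadh, its bifunctional enzyme, rose by 2.90 and 3.30, against 1.37 at most among the mitochondrial members. Acaa1b, a thiolase, rose by 2.23 and 2.46, Abcd3, a transporter, by 1.18 and 1.30, Crot, an acyltransferase, by 1.08 and 1.24, and Hsd17b4 by 0.86 and 0.90. The one that fell, named outside the rule, was the reductase Pecr, by 0.30. In lung, where no member was called, Ehhadh rose by 1.85 and 2.66 and Acaa1b by 2.17 at 10 mg/kg/day.

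Genes of mitochondria outside fatty acid breakdown had medians nearer to 0. Of 16 tricarboxylic acid cycle genes 2 rose at each dose, citrate synthase Cs by 0.29 and 0.26 and fumarate hydratase Fh1 by 0.22 and 0.25, with medians of 0.09 and 0.05. Of 14 genes of mitochondrial pores, import and maintenance 5 rose at each dose, with medians of 0.11 and 0.13. Polg, the mitochondrial DNA polymerase, rose by 0.42 and 0.52, and the chaperones Hspd1 and Hspa9 by 0.31 and 0.37 and by 0.25 and 0.25. The import receptor Tomm70a rose by 0.25 and 0.23, and the protease Lonp1 showed 0.28 and then rose by 0.36. Tfam, a mitochondrial transcription factor named outside the rule, rose by 0.19 and then showed 0.15. Of 4 acyl-CoA dehydrogenases of amino acid breakdown 0 and 1 rose (limma), with 1 and 2 at an unadjusted p under 0.05, the called one being Ivd, of leucine breakdown, with 0.23 and 0.27.

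Among 10 tested regulators of these genes 0 were called by limma at 5 mg/kg/day, with 2 at an unadjusted p under 0.05, and 1 rose at 10 mg/kg/day, with medians of -0.08 and -0.04. That one was Ppargc1b, a coactivator of mitochondrial genes, with 0.60 (limma adjusted p = 0.0132). Named outside the rule after their values were seen, Ppara showed -0.25 (adjusted p = 0.0536) and the coactivator Ppargc1a -0.79 (adjusted p = 0.0523) at 10 mg/kg/day, which did not pass.

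**Figure D4:**
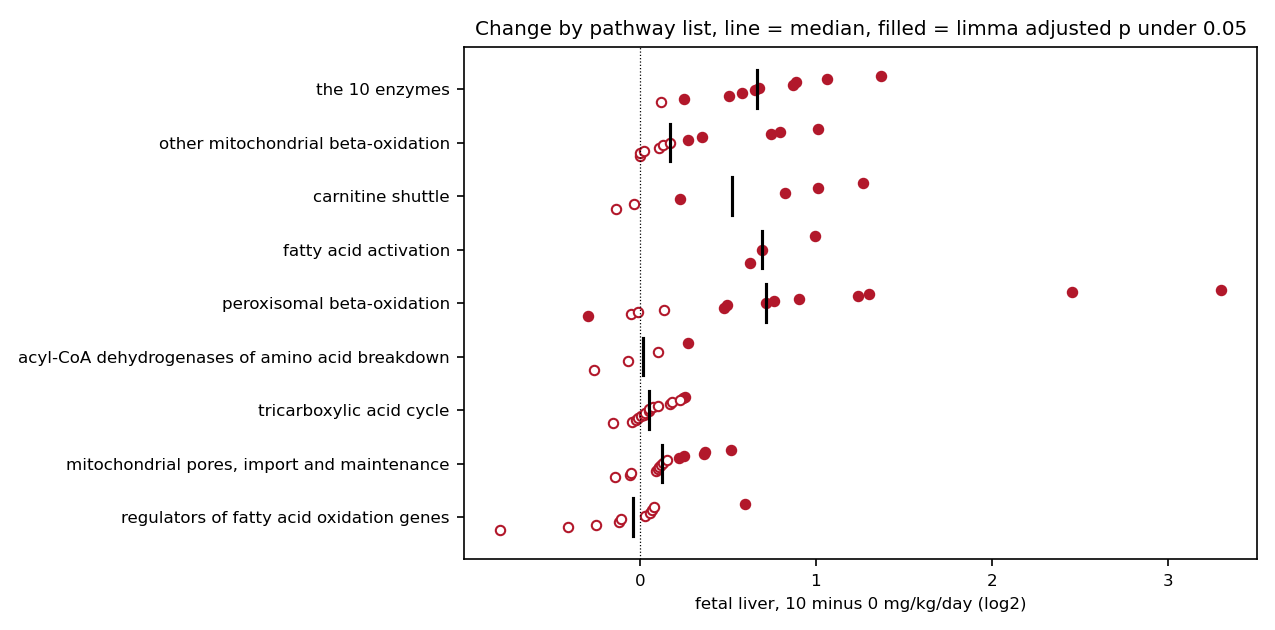
Change of each tested gene in fetal liver at 10 against 0 mg/kg/day (log2), by gene list, where points are genes, lines are list medians and filled points passed a limma adjusted p of 0.05. The median of the 10 enzymes is 0.67, that of the tricarboxylic acid cycle 0.05 and that of the regulators -0.04.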

How the data were processed

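The authors deposited log2 values per probe set, made with RMA per the submitters' processing notes (background correction, normalization and probe summary). Its version, and which arrays it normalized jointly, are unstated in the sources used here. The labels' protocols give 8 as the lowest RNA integrity number used. RMA compresses changes of dim probe sets. The members and gene lists were chosen with earlier results of these data known. Only probe sets with 1 symbol name genes, and testing within a tissue required a level above the 40th percentile on at least 5 of 15 arrays.

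Models with 1 mean per dose were fitted within tissues (R 4.3.3, limma 3.58.1), and a fit of all 30 arrays compared the tissues. P-values were two-sided and adjusted by Benjamini-Hochberg over all genes tested, and a call is an adjusted p under 0.05. Correlations used 100000 permutations within doses. The number of litters limits the precision. Named genes beside the 10 members were, per list, up to 5 called genes by size of change in liver at 10 mg/kg/day, and the 6 genes per tissue most like the members. On simulated data limma called 37 of 50 liver genes changed by 0.5, over 13269 genes, and 40 of 50 lung genes, over 12897. Of genes changed by 0.3 it called 15 of 50 in liver and 18 of 50 in lung, so most changes of that size were missed. The simulated lung also held 50 genes raised by 1 and 50 lowered by 1, with 47 and 48 called. In the real lung 7 of 12897 genes were called at 10 mg/kg/day, and the adjustment is stricter with fewer calls. The simulated lung shares therefore do not carry over to the lung members. Alternatives were other filters, normalizations, probe set rules, fits and covariates, and fewer litters.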

Additional observations from a re-analysis of the deposited data

Results flagged for a closer look

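In fetal lung at 10 mg/kg/day litter 5 lay far from the other 4 litters in 2 members. Hadhb read 9.154 there, with the next litter at 8.803, and Eci1 read 8.245, with the next at 7.635. The gap was 0.842 and 0.882 of the group's range. Of 60 groups of 5 litters examined, these 2 were so marked, and chance marks about 1 in 20. The cardiac marker mean of the same litter was 10.20. The lung change at 10 mg/kg/day was 0.26 for Hadhb and 0.28 for Eci1, and without that litter 0.18 and 0.15. With the mean of the 11 cardiac markers that passed the filter as a covariate it was 0.21 and 0.18.

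The change in liver differed from that in lung by a test of the difference in 7 members at each dose. At 5 mg/kg/day the differences were 0.39 for Acadvl, 0.55 for Acadl, 0.53 for Hadha, 0.43 for Hadhb, 1.02 for Eci1, 0.74 for Decr1 and 0.72 for Etfdh. At 10 mg/kg/day they were 0.39 for Acadvl, 0.46 for Acadl, 0.48 for Hadha, 0.32 for Hadhb, 1.09 for Eci1, 0.85 for Decr1 and 0.63 for Etfdh. With dose and replicate number as a block 6 and 5 of these were called, Acadvl being lost at 5 mg/kg/day and Acadl and Hadhb at 10 mg/kg/day.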

How the results depend on the processing

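In liver 8 or 9 members were called at each dose under every alternative run. In the difference between tissues 6 or 7 were called at 5 mg/kg/day and 5 to 8 at 10 mg/kg/day, and without PFOS all 10 were higher in liver under each. In the 4 comparisons with no call, none was made under any alternative, which says nothing about stability. No called member reversed its direction. Of 750 member values under settings other than leaving out a litter, 738 kept their side of the threshold, 9 lost a call and 3 gained one. Of 1100 with a litter left out 1067, 31 and 2 did. These totals include the 4 comparisons with no call, and a change of sign in an uncalled value counts as kept. They are therefore no measure of how stable a single call is: that of Acadl between tissues at 10 mg/kg/day was lost in 4 of 6 other settings. Acads in liver at 5 mg/kg/day was called under the stricter filter (limma adjusted p = 0.0413), another variance model (0.0387), both tissues in 1 fit (0.0315) and without litter 4 of that dose (0.0289). The difference between tissues for Acadl fell to 0.29 at 5 and 0.14 at 10 mg/kg/day with its probe sets averaged (adjusted p = 0.215 and 0.594), since 1 of them is never above the 40th percentile, and at 10 mg/kg/day its call was also lost with no filter (0.052) and with quantile normalization (0.0849), as was that of Hadhb with the latter (0.0508). Acadvl at 5 mg/kg/day lost it without control liver litter 2 (0.0504).

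With the replicate number as a replicate block 8 members were called in liver at 5 mg/kg/day, 9 at 10 mg/kg/day and 0 in lung, and 6 and 5 in the difference between tissues, where Acadvl at 5 mg/kg/day (0.0815) and Acadl (0.0514) and Hadhb (0.0599) at 10 mg/kg/day were lost. Within a tissue, same-numbered litters of different doses correlated with r from -0.306 to 0.274, so the numbers were not taken to pair them. Between liver and lung all 15 same-numbered pairs had a positive r, from 0.001 to 0.354, and 12 were over 0.1, with all 5 at 10 mg/kg/day among them. The labels do not state that these come from the same litter, and the pairing of the tissues was not settled.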
